A study of Homo sapiens with 6 samples.

Results

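The genes of 4 families of splicing factors were compared across 3 deposited values of expression. They were chosen by symbol, as every gene named SRSF plus a number (SR proteins), HNRNP plus letters or digits (hnRNP proteins), SNRP plus letters or digits (proteins of the spliceosomal snRNPs) or SF3A or SF3B plus a number (the SF3a and SF3b complexes). Of 27381 genes in the table, 63 matched, namely 12 SRSF, 29 HNRNP, 13 SNRP and 9 SF3 genes.

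The RNA came from DU145, an epithelial cell line of human metastatic prostate cancer, in 6 libraries. By their labels, 2 libraries each are Scr, the control given a scrambled sgRNA, CD24 KO, with a knockout of CD24, and RCC2 KO, with a knockout of RCC2. All cells carried CRISPR/Cas9 reagents in the same parental line, delivered on a plasmid that also encodes GFP, and knockout clones were grown from sorted cells and selected by Sanger sequencing and Western blot. Which clone each library came from is not given in the sources used here, so what is particular to a clone and what follows the targeted gene cannot be told apart. The deposited table holds 1 value per gene and condition, in FPKM (fragments mapped to a gene, divided by its transcript length and by the total of the library), so no SD between libraries and no test is given below, and the depth behind each value is unknown. The RCC2 KO column may hold 1 library or both, since its name is also that of the first RCC2 KO library. The comparison addresses how RNA levels in each knockout stood against Scr, the control of both.

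The values listed under the 2 targeted genes did not follow the labels. CD24 was 93.2 FPKM in Scr, 309 in CD24 KO and 214 in RCC2 KO. Its locus in the table lies on chromosome Y and is shared with TTTY14, and 3 pseudogenes carry its name in GENCODE. The CD24 value may therefore not be that of the targeted gene. RCC2, with 8 named pseudogenes, was 37.8 FPKM in Scr, 14.2 in CD24 KO and 41.8 in RCC2 KO. The conditions are therefore named by the labels of their libraries, and every direction below is that of the libraries labelled CD24 KO or RCC2 KO. As to the cell type, the epithelial keratins KRT8 and KRT18 were 336 and 293 FPKM in Scr, 149 and 141 in CD24 KO and 348 and 305 in RCC2 KO, EPCAM was between 44.9 and 58.9 FPKM, KRT19 was 83.5, 113 and 107 FPKM and the adhesion gene CDH1 27.9, 52.6 and 23.7 FPKM in the same order, and the leukocyte gene PTPRC and the prostate gene KLK3 were listed at 0. CD68, a macrophage marker, was 37.1 FPKM in Scr, 81.5 in CD24 KO and 38.4 in RCC2 KO. The 3 columns sum to 451272, 388764 and 447005 FPKM in the same order.

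Splicing removes introns from pre-mRNA in the spliceosome, a machine built from small nuclear RNAs, each wrapped in a ring of Sm proteins, and a large set of other proteins. SR proteins bind exonic enhancers and recruit the spliceosome, while hnRNP proteins coat nascent RNA and often act against exon inclusion, so the balance of both kinds sets much of alternative splicing. SF3a and SF3b belong to the U2 snRNP and hold it on the branch point. Many SR and hnRNP genes carry highly conserved exons whose inclusion sends the mRNA to nonsense-mediated decay (NMD), a route by which these proteins limit their own levels.

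Promoters of 5 members are printed to show genes at both ends of the difference between CD24 KO and Scr described below. Among members with 1 promoter entry in RefSeq and at least 5 FPKM in Scr, SRSF1, HNRNPM and SNRPB had the 3 lowest changes and SRSF4 and SRSF5 the 2 highest. The sequences are from RefSeq on GRCh38.p14, 250 bases before the annotated start, 5′ to 3′ on the strand of the gene. They cover chr17:58007247-58007496 on the minus strand for SRSF1, chr19:8444725-8444974 on the plus strand for HNRNPM, chr20:2470790-2471039 on the minus strand for SNRPB, chr1:29181901-29182150 on the minus strand for SRSF4 and chr14:69766892-69767141 on the plus strand for SRSF5. Capitals mark an E-box (CACGTG), an ETS core (CCGGAAG or its reverse complement CTTCCGG) or a GC box (GGGCGG or its reverse complement CCGCCC).
SRSF1: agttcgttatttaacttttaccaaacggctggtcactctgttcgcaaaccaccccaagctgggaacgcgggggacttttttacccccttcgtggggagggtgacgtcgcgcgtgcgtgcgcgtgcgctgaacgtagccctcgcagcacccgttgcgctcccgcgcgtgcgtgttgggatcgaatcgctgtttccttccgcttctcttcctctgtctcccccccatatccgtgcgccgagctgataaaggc
HNRNPM: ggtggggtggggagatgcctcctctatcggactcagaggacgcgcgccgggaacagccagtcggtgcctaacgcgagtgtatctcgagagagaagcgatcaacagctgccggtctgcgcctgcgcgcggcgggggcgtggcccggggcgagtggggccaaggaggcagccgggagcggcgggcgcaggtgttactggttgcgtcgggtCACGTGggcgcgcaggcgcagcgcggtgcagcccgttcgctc
SNRPB: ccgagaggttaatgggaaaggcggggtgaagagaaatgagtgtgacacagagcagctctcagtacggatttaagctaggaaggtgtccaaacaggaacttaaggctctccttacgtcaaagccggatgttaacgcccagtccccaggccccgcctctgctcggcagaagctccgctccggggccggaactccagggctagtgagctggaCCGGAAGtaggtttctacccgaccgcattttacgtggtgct
SRSF4: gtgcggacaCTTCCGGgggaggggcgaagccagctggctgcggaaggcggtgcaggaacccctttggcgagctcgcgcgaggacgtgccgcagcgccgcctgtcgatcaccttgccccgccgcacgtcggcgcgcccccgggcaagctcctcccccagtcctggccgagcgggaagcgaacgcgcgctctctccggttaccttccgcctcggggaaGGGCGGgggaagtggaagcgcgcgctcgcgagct
SRSF5: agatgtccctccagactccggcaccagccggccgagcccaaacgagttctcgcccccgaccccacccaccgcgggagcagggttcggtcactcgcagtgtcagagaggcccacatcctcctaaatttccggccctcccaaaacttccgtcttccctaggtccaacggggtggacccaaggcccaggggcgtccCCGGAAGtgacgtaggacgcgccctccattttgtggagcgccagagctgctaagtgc
The SRSF1 window held none of the motifs searched, the HNRNPM window held an E-box, and an ETS core stood in the windows of SNRPB, SRSF4 and SRSF5, that is, in genes on both sides of the comparison.

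Genes with at least 1 FPKM in at least 1 column were compared, 12822 in all, on the scale log2(FPKM + 1), and a change is the difference of these values, which understates the change of low genes. Of the 63 members, 55 passed (12 SRSF, 22 HNRNP, 12 SNRP and 9 SF3). SRSF10 passed through the RCC2 KO column alone. HNRNPA1P33 passed through the Scr and RCC2 KO columns, with under 1 FPKM in CD24 KO. Of the 8 that did not pass, HNRNPA1P10, HNRNPCL1, HNRNPKP3 and SNRPD2P2 were listed at 0 in every column, and HNRNPA3P1, HNRNPCL2, HNRNPCL3 and HNRNPCL4 had at most 0.22 FPKM. A gene is called lower or higher where it differed at least 1.5-fold on this scale, a minimum of size and not a test.

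Splicing factor RNAs were lower in the libraries labelled CD24 KO than in Scr and close to Scr in those labelled RCC2 KO. In CD24 KO, 25 of the 55 members compared were lower by the 1.5-fold minimum (45.5%) and 0 were higher, whereas 11.6% of all genes compared were lower and 9.55% higher. At least 2-fold lower were 10 members (18.2%), against 3.03% of all genes. With at least 1 FPKM required in every column, 24 of 53 members were lower by the 1.5-fold minimum. The median change was -0.49 (range -2.52 to 0.34), beside -0.03 for all genes compared, and 49 members lay below 0, as did 52.9% of all genes compared. In RCC2 KO against Scr, the median was 0.10 (range -0.33 to 0.72), 19 members and 50.6% of all genes lay below 0, 0 members were lower and 1, SNRPG, was higher, beside 3.82% and 1.45% of all genes. Between the knockouts, 28 of the 55 members (50.9%) were higher in the libraries labelled RCC2 KO and 0 were lower, beside 13.8% and 14.1% of all genes. CD24 KO was the lowest of the 3 columns for 48 of the 55 members and for 5672 of the 12822 genes. Both knockouts are compared with the same Scr values, so their differences from it are not independent. In these bulk samples, fewer cells of a type and less RNA per cell cannot be told apart.

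Members are well expressed, and highly expressed genes as a whole leaned lower in CD24 KO. Of the 6618 genes with a mean of at least 10 FPKM, 15.5% were lower in CD24 KO than in Scr and 18.2% were higher in RCC2 KO when the knockouts were compared. Among them were 50 members, of which 24 and 27 were so. The summed value of the 63 members was 5947 FPKM in Scr, 3664 in CD24 KO and 6193 in RCC2 KO, which is 1.32%, 0.942% and 1.39% of the column sums. The highest value of any gene compared was 26900 FPKM in Scr, 10300 in CD24 KO and 22700 in RCC2 KO. Such single values weigh on the column sums and so on any rescaling to them. Rescaling the columns to equal sums moved the median change of all genes in CD24 KO to 0.17. The median of the members was then -0.28. Relative to the median of all genes, 49 members were still below it, and 45 lay below 0, with HNRNPLL, HNRNPUL1, SF3A1 and SF3B6 changing sign.

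**Figure D1:**
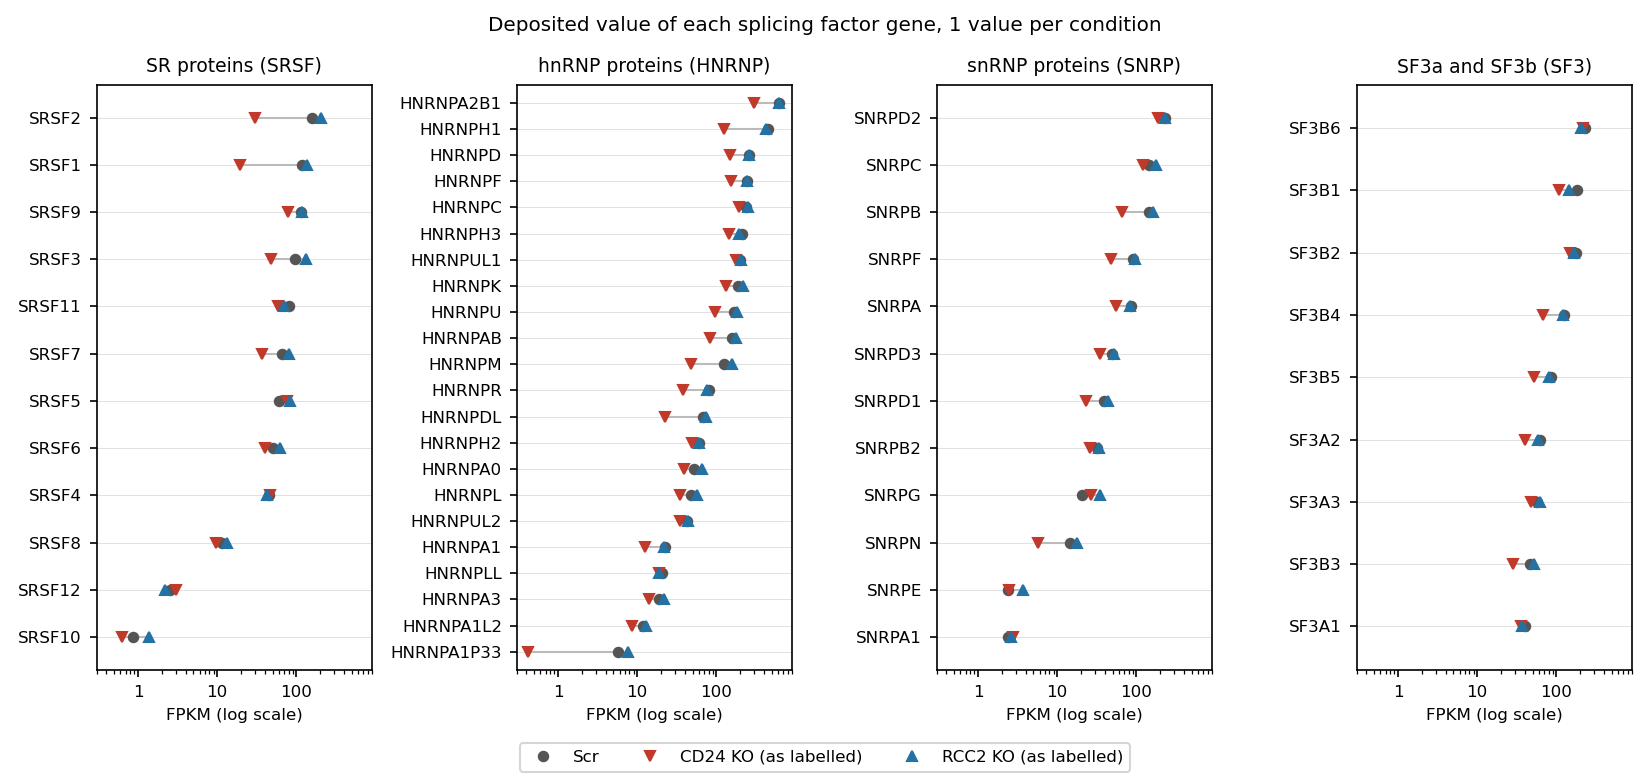
FPKM of the 55 members compared (log axis, 1 panel per family, genes ordered by Scr), with circles for Scr and triangles for the libraries labelled CD24 KO and RCC2 KO, 1 deposited value per condition and no error bars. The CD24 KO mark is the leftmost of its row for 48 of the 55 genes. The widest gaps are at SRSF1, SRSF2 and HNRNPA1P33, the last with under 1 FPKM in CD24 KO.

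On the log2(FPKM + 1) scale, SRSF1 and SRSF2 had the largest decreases of any member in CD24 KO. SRSF1, the prototype SR protein that binds exonic enhancers and also takes part in mRNA export and translation, was 116 FPKM in Scr, 19.4 in CD24 KO and 138 in RCC2 KO. It was 5.99-fold lower in CD24 KO than in Scr by the ratio of FPKM, a log2 change of -2.52, the 11th lowest of the 12737 genes above 0 in every column. SRSF2, known for its mutations in myeloid malignancies, was 157, 30.0 and 204 FPKM in the same order, 5.24-fold lower in CD24 KO (log2 change -2.35, the 14th lowest). In both genes the RCC2 KO value was the highest of the 3, at log2 changes of 0.25 and 0.37 from Scr. The table gives SRSF2 1 locus together with MFSD11 and MIR636, which overlap it.

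SRSF3 and SRSF7 were also lower in CD24 KO by the minimum. SRSF3, the smallest SR protein and an mRNA export adaptor, was 97.3 FPKM in Scr, 48.4 in CD24 KO and 131 in RCC2 KO (log2 changes -0.99 and 0.42). SRSF7, a close relative, was 66.6, 36.6 and 79.6 FPKM (-0.85 and 0.25). Both stood lowest in CD24 KO and highest in RCC2 KO, as SRSF1 and SRSF2 did. SRSF6 was 51.1 FPKM in Scr, 39.6 in CD24 KO and 62.4 in RCC2 KO, with only its difference between the knockouts (0.64) past the minimum. SRSF9 was 114, 79.1 and 118 FPKM, with a log2 change of -0.52 in CD24 KO that missed it.

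Not every SR gene had its lowest value in CD24 KO. SRSF4 was 45.5 FPKM in Scr, 46.8 in CD24 KO and 42.5 in RCC2 KO, and SRSF5, an SR protein induced by growth stimuli, was 60.8, 76.8 and 83.4 FPKM, so Scr was its lowest column. SRSF12 had 2.51, 3.01 and 2.22 FPKM. These were named after their values had been seen. The remaining genes SRSF8, SRSF10 and SRSF11 had CD24 KO changes between -0.43 and -0.20. Over the family, the median was -0.39 in CD24 KO, with 4 of 12 lower (33.3%, beside 11.6% of all genes compared). In RCC2 KO it was 0.25, with 9 of 12 above 0 and none past the minimum. Of the 12822 genes compared, 6317 lay above 0 there. With columns rescaled to equal sums, the CD24 KO median was -0.19. The 8 genes SRSF1 to SRSF7 and SRSF9 had a median of -0.69 in CD24 KO, with a spread from -2.52 to 0.33. SRSF10 was at 0.865, 0.621 and 1.37 FPKM, near the filter.

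All 22 hnRNP members compared lay below 0 in CD24 KO (-2.25 to -0.13), as did all 9 SF3 members and 52.9% of all genes. By the minimum 11 were lower (50%), beside 55.6% of SF3 members and 11.6% of all genes. The family's median was -0.62, as for SF3, whereas in RCC2 KO it was 0.06 and 0 passed the minimum in either direction. With at least 1 FPKM in every column, which leaves out HNRNPA1P33, the CD24 KO median was -0.54. HNRNPUL1 and HNRNPLL, at -0.14 and -0.13, lay above 0 once the columns were rescaled to equal sums, and HNRNPUL1 also after quantile normalization. The family's median in CD24 KO was -0.40 with columns rescaled to equal sums and -0.29 over the 7 genes without a named pseudogene. The medians of SRSF, SNRP and SF3 without named pseudogenes were -0.36, -0.55 and -0.67. The summed value of the family was 3283 FPKM in Scr, 1874 in CD24 KO and 3383 in RCC2 KO.

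The A/B and D group binds AU-rich and UAG-type elements in introns, exons and 3′ ends. It had 5 of its 7 genes lower in CD24 KO (71.4%, beside 11.6% of all genes compared), with a median of -0.80. HNRNPA2B1, an abundant nuclear RNA-binding protein and the highest member of all, was 616 FPKM in Scr, 300 in CD24 KO and 620 in RCC2 KO, with log2 changes from Scr of -1.03 and 0.01. HNRNPDL, a D-like paralogue known for regulating its own splicing, was 67.3, 22.5 and 74.2 FPKM, 3.0-fold lower in CD24 KO (log2 change -1.54). HNRNPD, also called AUF1, which binds AU-rich elements and promotes mRNA decay, was 258, 148 and 258 FPKM (-0.80 in CD24 KO). For each of these, Scr and RCC2 KO were nearly equal and CD24 KO stood apart. HNRNPAB was 157, 83.5 and 178 FPKM (-0.90 in CD24 KO). HNRNPA1, a main antagonist of SRSF1 in splice site choice, was 22.4, 12.4 and 21.6 FPKM (-0.80), but 74 pseudogenes carry its name in GENCODE and its locus is shared with 1 of them, so its reads may have been split. HNRNPA0 was 51.8, 39.2 and 66.1 FPKM, and HNRNPA3, with 16 named pseudogenes, was 18.6, 14.3 and 22.0 FPKM. Both were past the minimum only between the knockouts (0.74 and 0.59). In that comparison all 7 genes of the group were higher in RCC2 KO, beside 13.8% of all genes compared.

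Of the F/H group, which binds runs of G, HNRNPH1 had the largest decrease. It was 449 FPKM in Scr, 126 in CD24 KO and 421 in RCC2 KO, 3.55-fold lower in CD24 KO with a log2 change of -1.82. HNRNPF, its partner on G runs, was 245, 151 and 242 FPKM (-0.69). The other two, HNRNPH2 and HNRNPH3, shared their loci with neighbouring genes and had changes of -0.28 and -0.54 in CD24 KO. In RCC2 KO all 4 lay between -0.14 and -0.01, so this group did not share the small positive shift of the SR genes, although rescaling to equal sums put HNRNPF at 0.00.

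Among the remaining hnRNP genes, HNRNPM and HNRNPR were more than 2-fold lower in CD24 KO. HNRNPM, a regulator of the splicing of mesenchymal isoforms such as those of CD44, was 126 FPKM in Scr, 48.2 in CD24 KO and 159 in RCC2 KO (log2 changes -1.37 and 0.33). HNRNPR, a relative of SYNCRIP, was 81.4, 37.6 and 76.3 FPKM (-1.09 and -0.09). HNRNPU, the scaffold attachment factor of chromatin, was 166, 95.6 and 182 FPKM (-0.79 and 0.13), whereas its paralogues HNRNPUL1 and HNRNPUL2 were at -0.14 and -0.29 in CD24 KO. HNRNPC, which binds U tracts and packages nascent RNA, was 239, 192 and 253 FPKM, a smaller change of -0.32. HNRNPK, which binds C-rich RNA, was 187, 133 and 217 FPKM, and HNRNPL, which binds CA repeats, was 47.5, 34.8 and 56.8 FPKM. HNRNPK and HNRNPL missed the minimum against Scr (-0.49 and -0.44 in CD24 KO) and passed it between the knockouts (0.70 and 0.69).

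HNRNPA1P33 is annotated as a pseudogene of HNRNPA1 and was 5.76 FPKM in Scr, 0.419 in CD24 KO and 7.69 in RCC2 KO, a log2 change of -2.25 in CD24 KO. By the ratio of FPKM it was 13.8-fold lower there, the largest ratio of any member compared. Its CD24 KO value lies under the filter of 1 FPKM, so this ratio rests on a value near 0. It shares its locus, on chromosome 10 from 47096454 to 47151400 as the table gives it, with LINC00842, and reads of HNRNPA1 copies cannot be told apart from it here. The retrogene HNRNPA1L2, a further copy of HNRNPA1, was 12.0, 8.71 and 12.9 FPKM.

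**Figure D2:**
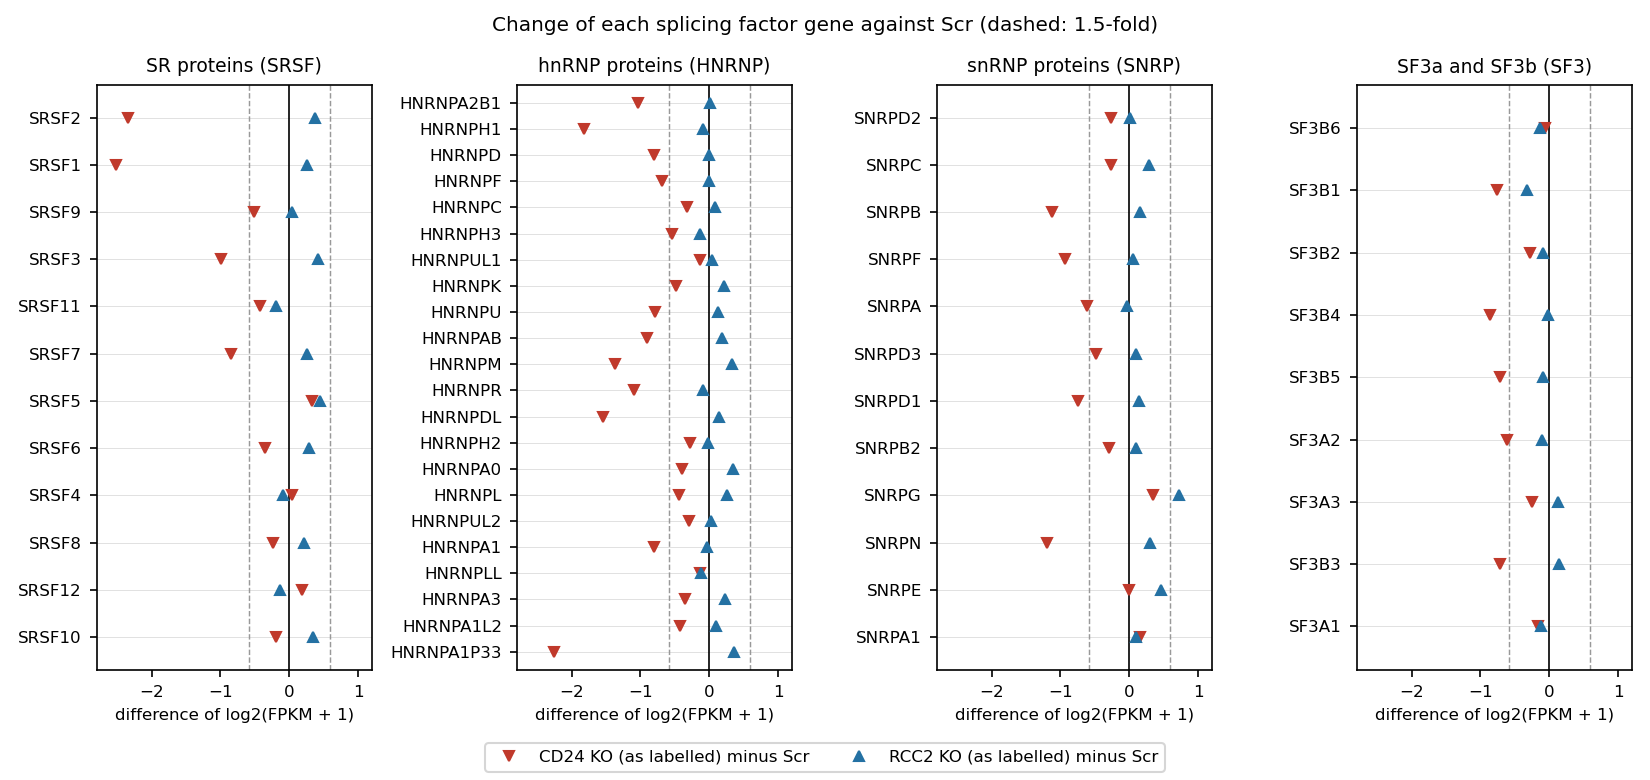
Difference of log2(FPKM + 1) from Scr for each of the 55 members compared, 1 panel per family, with the libraries labelled CD24 KO as downward and RCC2 KO as upward triangles and the 1.5-fold minimum dashed. In CD24 KO 25 genes lie left of the lower dashed line, and in RCC2 KO only SNRPG, at 0.72, lies outside the lines.

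The snRNP proteins were less uniform. Their median was -0.39 in CD24 KO, with 5 of 12 lower (41.7%, beside 11.6% of all genes compared). Above 0 were 3 of them (SNRPE turned to -0.11 after quantile normalization) and 6022 of the 12822 genes compared. In RCC2 KO the median was 0.12, with 11 of 12 above 0, beside 6317 of the 12822 genes. Rescaling to equal sums gave a CD24 KO median of -0.18. SNRPB, which encodes the Sm proteins B and B′ and whose level is known to affect the inclusion of many exons, was 144 FPKM in Scr, 65.6 in CD24 KO and 160 in RCC2 KO (log2 changes -1.13 and 0.15). SNRPF, another Sm protein, was 91.8, 47.3 and 95.1 FPKM (-0.94 and 0.05). SNRPD1 was 39.1, 23.1 and 43.2 FPKM (-0.74 and 0.14). These 3 of the 7 Sm ring genes (42.9%) were lower in CD24 KO by the minimum.

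The other ring genes were not. SNRPD2, the highest of the family, was 228 FPKM in Scr, 189 in CD24 KO and 230 in RCC2 KO, a change of -0.27 in CD24 KO, and SNRPD3 was at -0.48. SNRPG was 20.7, 26.5 and 34.7 FPKM, 1.67-fold higher in RCC2 KO than in Scr (log2 change 0.72), and it also had the highest CD24 KO change of any member, 0.34. SNRPE was 2.43, 2.44 and 3.71 FPKM. The ring holds 1 copy of each protein, while the listed values of its genes ran from 2.43 to 228 FPKM in Scr. SNRPG has 20 named pseudogenes and SNRPE has 9, which can take reads from the parent gene, and how the authors counted such reads is not given in the sources used here. In RCC2 KO all 7 ring genes lay above 0, from 0.01 to 0.72, also after quantile normalization and rescaling to equal sums.

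Of the proteins particular to the U1 and U2 particles, SNRPA, the U1 A protein, was 85.7 FPKM in Scr, 55.5 in CD24 KO and 83.9 in RCC2 KO (-0.62 in CD24 KO). SNRPC, the U1 C protein that steadies the pairing of U1 with the 5′ splice site, was 145, 120 and 177 FPKM (-0.27 and 0.29). SNRPB2 and SNRPA1, the U2 B″ and A′ proteins, were at -0.30 and 0.16 in CD24 KO, the latter with under 3 FPKM in each column. SNRPN, the imprinted paralogue of SNRPB expressed mainly in brain, was 14.4, 5.70 and 18.0 FPKM (-1.20 and 0.30). Its locus in the table spans 88 other genes, so its value is uncertain.

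SF3 genes were lower in CD24 KO and were the only family with a median below 0 in RCC2 KO. All 9 lay below 0 in CD24 KO, beside 52.9% of all genes compared, with a median of -0.62. By the minimum 5 were lower (55.6%, beside 11.6% of all genes compared). SF3A1 and SF3B6 lay above 0 after rescaling to equal sums, SF3B6 also after quantile normalization. In RCC2 KO the median was -0.09 and 7 of 9 lay below 0, none by the minimum, beside 50.6% of all genes below 0. SF3B1, the largest subunit, which encloses the branch point and is mutated in several cancers, was 184 FPKM in Scr, 108 in CD24 KO and 146 in RCC2 KO. Its log2 changes were -0.76 and -0.33, the latter the lowest of any member in RCC2 KO, so both knockout columns stood below Scr. SF3B4 was 123, 66.9 and 121 FPKM (-0.86 and -0.02), and its RCC2 KO change turned to 0.02 after quantile normalization. SF3B3 was 46.7, 28.0 and 51.5 FPKM (-0.72 and 0.14). SF3B5, a small subunit, was 86.5, 52.3 and 81.2 FPKM (-0.72 and -0.09).

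SF3B6 and SF3B2 moved little. SF3B6, which contacts the branch point adenosine, was 227 FPKM in Scr, 216 in CD24 KO and 206 in RCC2 KO, the family's highest level, and SF3B2 was 179, 147 and 168 FPKM. Of SF3a, SF3A2 was 62.7, 40.4 and 58.3 FPKM (-0.62 in CD24 KO), while SF3A1 and SF3A3 were at -0.17 and -0.25. SF3b thus had 4 of 6 genes lower in CD24 KO (66.7%) and SF3a 1 of 3 (33.3%), beside 11.6% of all genes compared. 

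**Figure D3:**
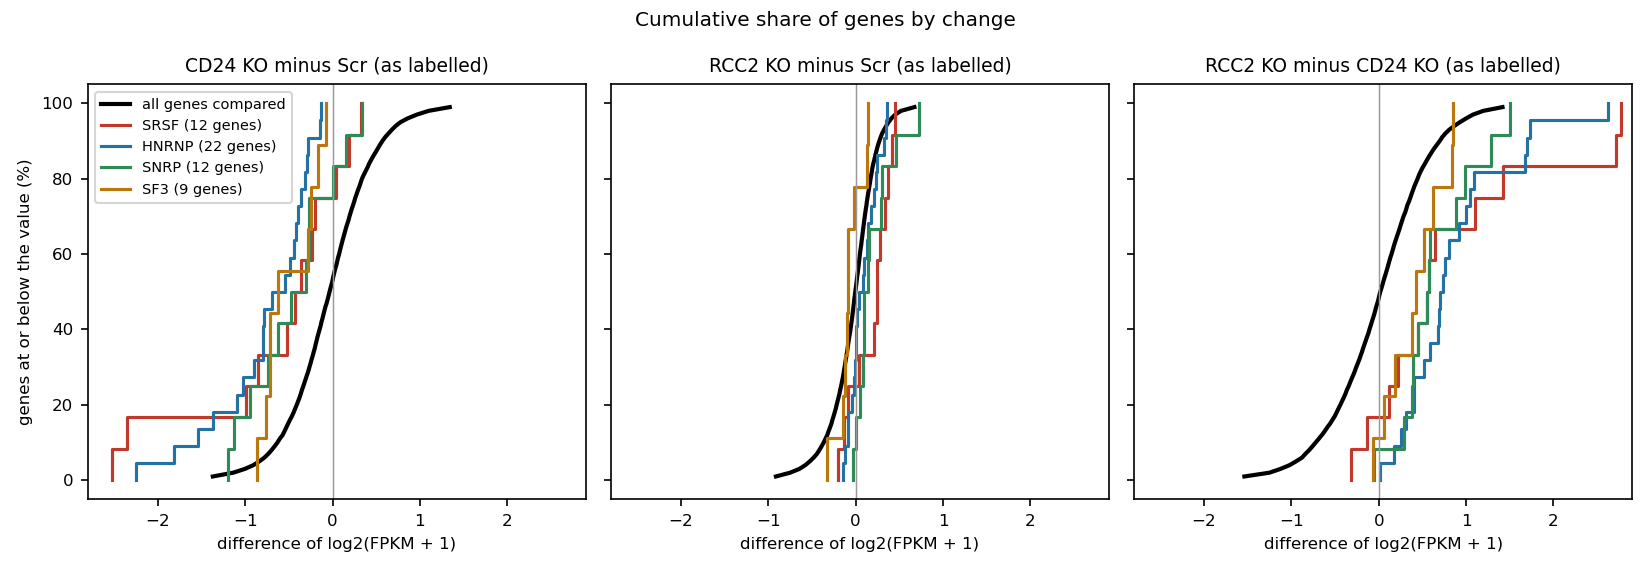
Cumulative share of genes (%) by difference of log2(FPKM + 1) for the 12822 genes compared (black, 1st to 99th percentile) and the 4 families (coloured steps), in the 3 comparisons as labelled. At their medians the family curves lie left of the black curve in CD24 KO minus Scr (-0.62 to -0.39 beside -0.03). In RCC2 KO minus CD24 KO they lie right of it (0.43 to 0.72 beside 0.02). In the tails curves can cross, as the SF3 changes end at -0.86 in the former and at 0.85 in the latter.

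Genes that work beside the members were compared through 10 lists, chosen with earlier results of these data known. Over 109 genes compared from these lists of other splicing and decay genes, the median was -0.45 in CD24 KO. By the minimum 40 were lower (36.7%) and 0 higher, beside 11.6% and 9.55% of all genes compared. In RCC2 KO the median was 0.05, with 0 past the minimum, beside 3.82% of all genes lower and 1.45% higher. The 3′ splice site and branch point list had the lowest median of the 10, at -0.79, with 7 of 10 lower. SF1, which binds the branch point before U2 arrives, was 153 FPKM in Scr, 57.0 in CD24 KO and 163 in RCC2 KO (-1.41 in CD24 KO). U2AF1, which reads the AG of the 3′ splice site, was 194, 77.6 and 223 FPKM (-1.31), and its partner U2AF2 was 57.1, 29 and 69 FPKM (-0.95). PHF5A, a further part of SF3b whose symbol the families do not cover, was 54.2, 29.7 and 58.4 FPKM (-0.85).

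Among the particle proteins, 5 of 7 genes named SNRNP (71.4%, median -0.67) and 7 of 12 tri-snRNP genes (58.3%, -0.63) were lower in CD24 KO. Of all genes compared, 11.6% were lower. SNRNP70, the U1 70K protein, was 118 FPKM in Scr, 73.0 in CD24 KO and 97.4 in RCC2 KO. DDX23, a tri-snRNP helicase, was 80.6, 41.9 and 75.7 FPKM (-0.93 in CD24 KO). The list of LSm genes, LSM1 and LSM3 to LSM8, had 1 of 7 lower (14.3%, near the share of all genes), LSM7 (-0.71), with a median of -0.16. Of 12 genes compared for the SMN complex and Sm ring assembly, 4 were lower (33.3%, median -0.43). WDR77, which with PRMT5 methylates Sm proteins, had the largest change of these, at 25, 5.26 and 33.8 FPKM (-2.05), and PRMT5 was at -0.79.

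Of 7 SR protein kinases, CLK4 (8.09 FPKM in Scr, 3.41 in CD24 KO and 6.65 in RCC2 KO) and DYRK1A (21.7, 12.6 and 22.2 FPKM) were lower. They are 28.6% of the list, beside 11.6% of all genes compared, and the list median was -0.39. Of 8 SR-related proteins, TRA2B (74.4, 33.7 and 80.6 FPKM) and TRA2A (41.0, 20.4 and 47.9 FPKM), which promote exon inclusion, were lower (25%). The median of that list was -0.38. Among 23 other splicing regulators, 8 were lower (34.8%, median -0.55). They include RBMX at 130, 60.1 and 154 FPKM (-1.10) and PTBP1, the repressor that binds polypyrimidine tracts, at 154, 82.2 and 165 FPKM (-0.90). Of 14 proteins of the catalytic steps, only PRPF19, at 105, 57.6 and 114 FPKM (-0.86), was lower (7.14%, under the share of all genes). The median of the 14, -0.07, was near that of all genes. The lists thus ranged from near the median of all genes to below every family median, with no test between them.

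**Figure D4:**
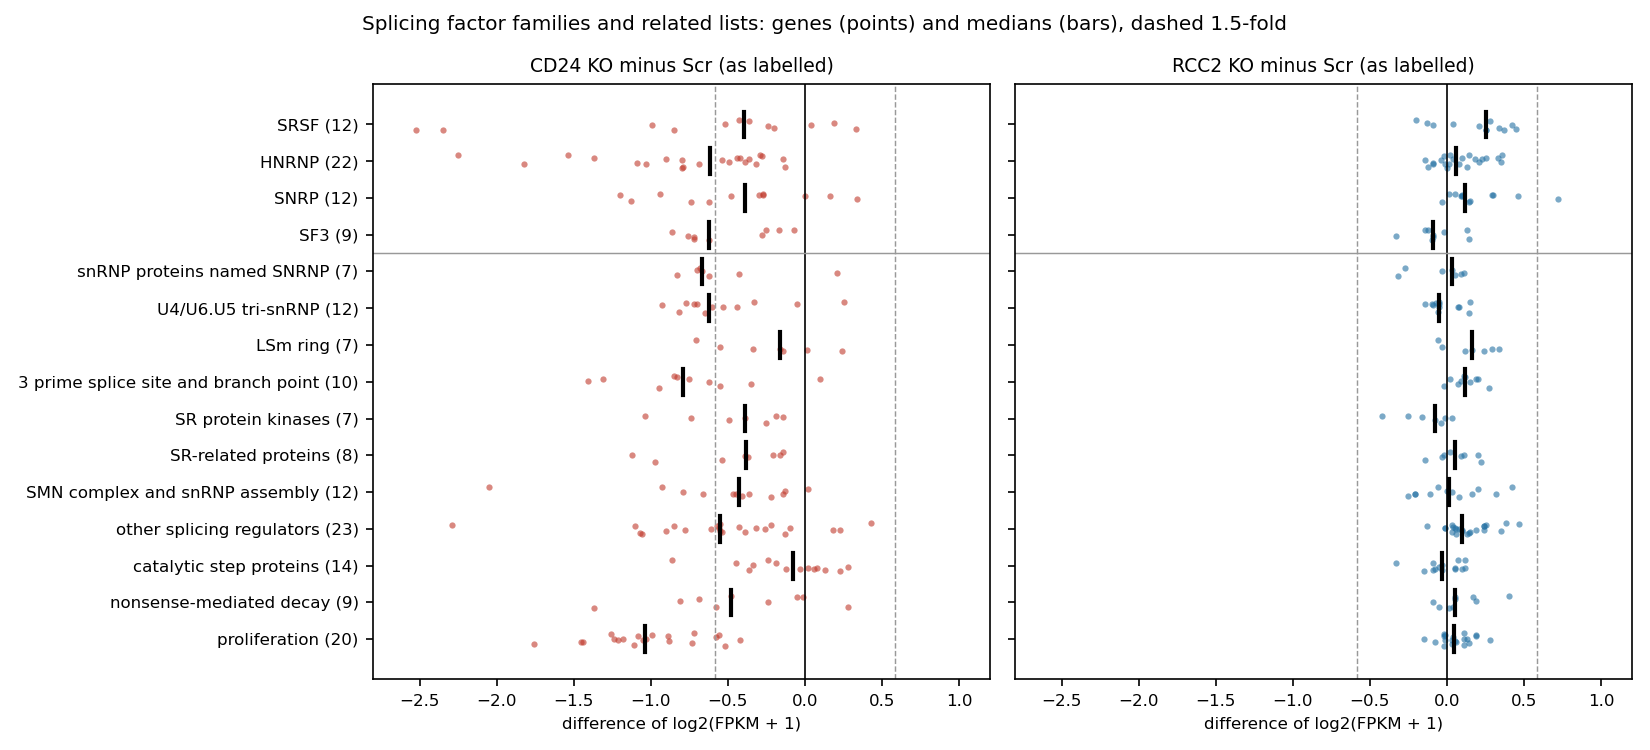
Difference of log2(FPKM + 1) from Scr in the libraries labelled CD24 KO (left) and RCC2 KO (right) for the 4 families (above the line) and 11 lists. The lists were chosen with earlier results of these data known. Each gene is a point, a black bar marks the median, the number of genes is in brackets and the 1.5-fold minimum is dashed. In CD24 KO the proliferation list has the lowest median (-1.04) and the catalytic step proteins the highest (-0.07), while in RCC2 KO no list gene lies past the minimum.

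Proliferation genes, a list chosen with earlier results of these data known, were also lower in CD24 KO. All 20 listed genes lay below 0 there, beside 52.9% of all genes compared, with a median of -1.04. By the minimum 16 were lower (80%, beside 11.6% of all genes compared). The summed level of the 20 was 1684 FPKM in Scr, 841 in CD24 KO and 1756 in RCC2 KO. MKI67 was 74.3, 32.2 and 66.9 FPKM in that order and PCNA 123, 61.5 and 122 FPKM. In RCC2 KO 0 of the 20 passed the minimum (median 0.04). The part of cell proliferation in the values of the splicing factors was not tested, nor was that of the column scaling, whose values stand above.

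Transcripts annotated as NMD targets were common among the members. In GENCODE, 32 of the 55 (58.2%) had at least 1 such transcript, beside 41.3% of the genes compared that were found in GENCODE, and these were 12 of 12 SRSF, 13 of 22 HNRNP, 4 of 12 SNRP and 3 of 9 SF3 genes. Of the 32, 16 were lower in CD24 KO (50%, median -0.57), and of the other 23, 9 were (39.1%, median -0.39). Among all genes compared and found in GENCODE, 12.9% with such a transcript and 10.9% without were lower. Their medians were -0.07 and -0.01. Of the 9 NMD factors compared, SMG9 (19.8 FPKM in Scr, 7.07 in CD24 KO and 20.0 in RCC2 KO), the core helicase UPF1 (19.2, 10.5 and 22.1 FPKM) and UPF3B (18.6, 11.1 and 19.3 FPKM) were lower in CD24 KO. They are 33.3% of the list, beside 11.6% of all genes compared, and the list median was -0.48. The table has 1 value per gene, so inclusion of a decay-linked exon cannot be read from it.

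The share of genes with an ETS core or a CCAAT box varied between the families. RefSeq promoters were matched for 53 of the 63 members and 50 of the 55 compared. HNRNPA1, HNRNPA1P33, SF3B3, SNRPD1 and SRSF2 had no entry, and all of these were lower in CD24 KO by the minimum. Motifs were searched in the 250 bases before the start, on both strands, and none of them contains another. A gene counts where any of its promoters held the letters. The ETS core stood in 6 of 8 SF3 and 7 of 11 SNRP genes with an entry, but in 2 of 11 SRSF and 3 of 20 HNRNP genes, beside 19.3% of genes compared. The CCAAT box (CCAAT or ATTGG) was in 16 of 20 HNRNP genes (80.0%), 5 of 11 SNRP, 2 of 11 SRSF and 1 of 8 SF3 genes, beside 41.3%. Of all 35116 promoters, 8.52% held the ETS core and 32.0% the CCAAT box.

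The members without an entry all fall among the 25 lower in CD24 KO, of which 20 could be searched. Within the members, 5 of 20 genes lower in CD24 KO and 13 of the other 30 had the ETS core, 11 of 20 and 13 of 30 the CCAAT box, 13 of 20 and 19 of 30 the GC box, and 4 of 20 and 3 of 30 the E-box. The GC box stood in 76.0% and the E-box in 11.3% of genes compared, and in 42.6% and 6.34% of all promoters. An E2F motif (GCGCCAAA or GCGGGAAA) was in 1 of 20 and 3 of 30, beside 4.08% of genes compared and 1.93% of all promoters. The TATA box (TATAAA) was in 4 of 20 and 3 of 30, beside 7.50% and 10.7%. The CRE (TGACGTCA) was in none of the 50, beside 3.53% of genes compared and 1.65% of all promoters. These matches describe letters in a window and were not tested against the changes.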

How the data were processed

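RNA-seq was analysed from 6 libraries of DU145 cells, 2 per label (Scr, CD24 KO, RCC2 KO). The authors deposited 1 table of FPKM values with 1 column per condition, and how the 2 libraries of a condition went into its column is not given in the sources used here (the RCC2 KO column may hold 1 or both). The submitters' processing notes name HISAT, StringTie, Cufflinks and GATK. The genome build and the strand used in counting are likewise not given. The labels describe an RNA kit used on total RNA and the methods a stranded mRNA kit. Only 2 of the 63 members overlapped their GRCh38 position, so loci were read as hg19, with starts written from 1.

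Members and lists were chosen with earlier results of these data known. Genes with at least 1 FPKM in any column were compared as log2(FPKM + 1), without rescaling, and counted at 1.5-fold and 2-fold. With 1 value per condition no test, SD or interval was possible, and depth is unknown since the table holds no counts. Values in all columns were given for the 3 highest members of each family by mean FPKM and for the 31 members at least 1.5-fold changed in any comparison with a highest value of at least 5 FPKM, and genes of other lists were named where at least 1.5-fold changed with at least 5 FPKM. Members outside this rule were named after their values had been seen. Length, GC content, NMD transcripts and named pseudogenes came from GENCODE 29 by symbol, for all 63 members. Promoters were RefSeq's on GRCh38.p14.

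The calculations were checked on simulated data with 200 changed genes. The changes put in were well past the 1.5-fold minimum, so the check covers the arithmetic only. Alternatives were pseudocounts of 0.1 and 5, no filter, at least 1 FPKM in every column, median centring, quantile normalization, rescaling to equal sums, a correction for GC content (10 bins) and length (5 bins), a 2-fold minimum, and members with shared loci or named pseudogenes left out. Python 3.11.15, NumPy 2.4.6, pandas 2.3.3 and matplotlib 3.10.9 were used.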

Additional observations from a re-analysis of the deposited data

How the results depend on the processing

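All 150 medians recomputed under an alternative kept their sign. A median counted as moved at 0.1 on the log2 scale and a count at 1.5 times. Quantile normalization gave medians in CD24 KO minus Scr of -0.34 for the members, -0.27 for SRSF, -0.44 for HNRNP, -0.25 for SNRP and -0.47 for SF3, and in RCC2 KO minus CD24 KO of 0.48, 0.44, 0.55, 0.41 and 0.21 in the same order. Rescaling to equal sums gave -0.28, -0.19, -0.40, -0.18 and -0.42, and 0.41, 0.41, 0.52, 0.36 and 0.23. Both kept 0 members higher in CD24 KO than in Scr, with 19 and 17 lower in place of 25.

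With a pseudocount of 0.1, 3 members were higher in RCC2 KO than in Scr in place of 1. A pseudocount of 5 gave an SRSF median of 0.44 in RCC2 KO minus CD24 KO. Without a filter the HNRNP median in CD24 KO minus Scr was -0.46 over 26 genes, since genes near 0 then enter. A minimum of 2-fold left 10 members lower in CD24 KO, 0 higher in RCC2 KO than in Scr, and 13 higher in RCC2 KO when set against CD24 KO.

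Leaving out members with a shared locus or a named pseudogene was chosen after seeing the data. Without shared loci (37 members left) the SNRP median was -0.27 in CD24 KO minus Scr and 0.45 in RCC2 KO minus CD24 KO, in which 18 members were higher. Without named pseudogenes (30 left) the HNRNP and SNRP medians in CD24 KO minus Scr were -0.29 and -0.55 and 12 members were lower. In RCC2 KO minus CD24 KO, the medians were then 0.48 for the members, 0.45 for SRSF and 0.31 for HNRNP, 12 members were higher, and 0 were higher in RCC2 KO than in Scr. These drops remove members, and further causes were not tested. Median centring, the stricter filter and the adjustment for GC content and length moved none of the values.

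No paired analysis was possible because the table has 1 value per condition. Leaving out a replicate was not run for the same reason. The spread between libraries and the depth are unknown, and no change has a stated precision.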
